A study of Mus musculus with 4 samples.

Results

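Described here are 9 genes of epithelial cells, of 18194 genes with a named probe set on the arrays: the ETS factors Ehf, Elf3 and Elf5, the grainyhead factor Grhl2, the splicing regulator Esrp1, and the surface genes Epcam, Mal2, Spint1 and St14. They were found by gene symbol in the platform annotation, which gave them 17 of the 45101 probe sets. They were chosen by their measured log2 differences between the groups of these same arrays, several of which were already known, so those differences are given as a description with no test. The cells came from chimeric mouse kidneys on embryonic day 15.5, grown from wildtype blastocysts that had been given 3 to 5 embryonic stem cells carrying green fluorescent protein (GFP) and a deletion of Tfrc, the transferrin receptor gene. After enzymatic dissociation the kidneys were parted by GFP into donor cells, labelled Tfrc-/- and GFP-positive, and host cells, wildtype and GFP-negative. Each group has 2 Affymetrix arrays. All donor cells carry both the GFP and the deletion, and no array holds GFP-positive cells with an intact receptor, so an effect of the deletion and one of the donor line itself cannot be told apart. The labels name neither the promoter that drives GFP, nor the number of donor lines, nor whether animals were pooled, and although they speak of biological replicates, the spread between arrays may be technical in part.

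The epithelium of the developing kidney has 2 sources, the branching ureteric bud, which becomes the collecting duct, and the nephron tubules that form from mesenchyme. ETS factors share a DNA-binding domain that recognises a GGAA core, and Ehf, Elf3 and Elf5 belong to the branch of the family that is largely found in epithelia. Grainyhead factors maintain epithelial junctions and barrier, and Grhl2 is known in the collecting duct for its role in lumen formation through claudin 4 and Rab25. Esrp1 directs epithelial splice forms, such as that of the growth factor receptor Fgfr2. Matriptase, the product of St14, is a membrane serine protease whose inhibitor is the product of Spint1 and which can cleave the adhesion protein encoded by Epcam.

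Every one of the 9 genes had a lower mean on the arrays labelled Tfrc-null, and 7 of them lay lower on both of those arrays than on either wildtype array. The mean was lower for 42.4% of all genes, and 14.3% of them were lower without overlap. At least a 2-fold lower level without overlap was seen for 5 of the 9 (Ehf, Mal2, Elf5, Grhl2 and Esrp1), where 1.51% of all genes met that description (2.66% when either direction is counted). Since the genes were gathered from this contrast, nothing is read from the distance between these shares. The median log2 difference, labelled Tfrc-null minus wildtype, was -1.39 for the 9 genes and 0.04 for all genes. With limma and Benjamini-Hochberg adjustment over all genes, 0 of 18194 genes (0.0%) passed an adjusted p of 0.05, while 1459 had an unadjusted p under 0.05. None of the 9 passed in that fit, or with the replicate number as a block, or with a variance trend (2 genes passed in each of these, both stefin genes). Fewer epithelial cells in a sorted sample and less RNA of these genes per epithelial cell cannot be told apart in such bulk values.

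**Figure D1:**
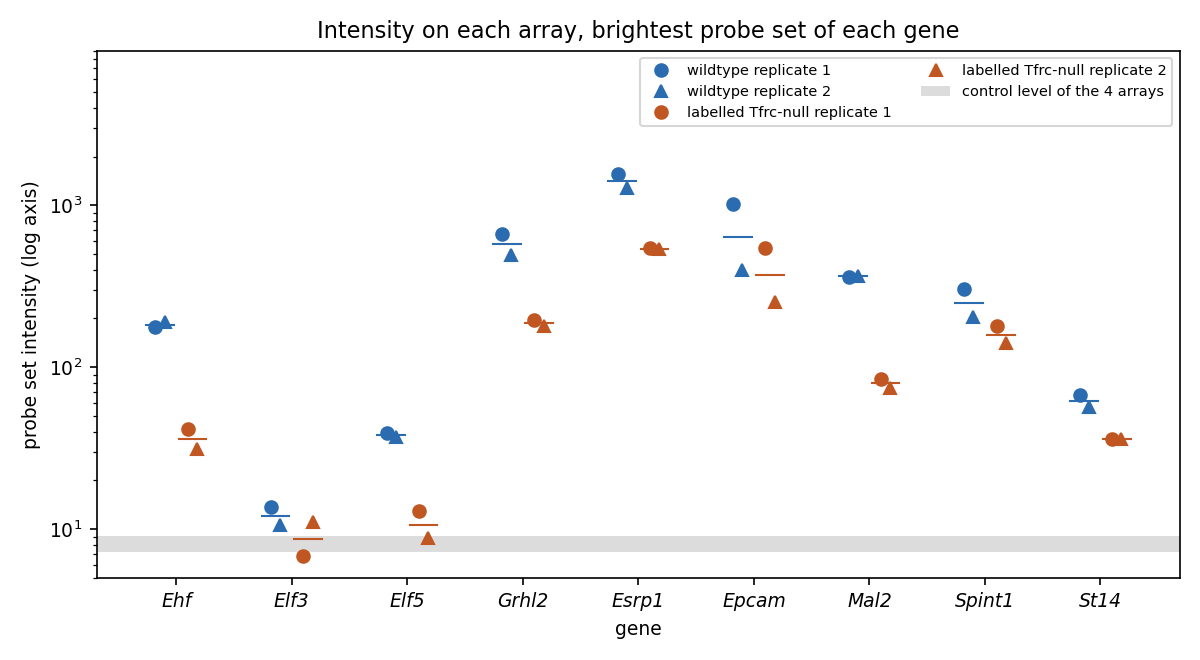
Intensity (log axis) of the brightest probe set of each of the 9 genes on the 4 arrays, blue for wildtype and orange for labelled Tfrc-null, circles for replicate 1 and triangles for replicate 2, with a bar at each group's mean of log2 values and a grey band for the range of the arrays' control levels. The blue and orange points are clearly apart for Ehf, Elf5, Grhl2, Esrp1 and Mal2, and they overlap for Elf3 and Epcam.

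Some facts of the whole series bear on these values. An array's control level, the brightest of 27 probe sets for Bacillus subtilis transcripts, lay between 7.18 and 9.08, and a probe set at or below it is treated as not measured. The kidney genes Pax8, Six2, Lrp2 and Ret were above it on all 4 arrays. Tfrc itself, by its brightest probe set, was at 1759 and 2348 in wildtype and at 2509 and 3175 in the other cells, so the deletion is not visible there and the second group is called labelled Tfrc-null. Bacterial hybridisation controls and the 3' to 5' ratio of beta-actin went with the replicate number: that ratio was 5.51 and 5.89 for number 1 but 6.49 and 7.21 for number 2. For this reason the differences within each number are given beside the pooled ones.

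Among the ETS factors, Ehf stood furthest apart. Wildtype cells gave intensities of 176 and 189 and labelled Tfrc-null cells of 41.5 and 31.1, means of 182 ± 9.32 and 36.3 ± 7.35 (SD, n = 2 each). Both labelled Tfrc-null values lay far under both wildtype values, a 5.07-fold lower level (log2 difference -2.34). The difference was -2.08 within number 1 and -2.60 within number 2, while the 2 wildtype arrays lay 0.10 apart and the other 2 arrays 0.42. Ranked over all 18194 genes from the lowest difference, Ehf came at position 31. A second Ehf probe set read 58.0 and 71.5 against 12.3 and 26.9, a log2 difference of -1.82 without overlap. Probe set 3 of Ehf read 8.23 and 10.1 against 5.84 and 6.35, so only the wildtype arrays were above their control level and the level was at least 1.20-fold lower. Probe set 4 was below the control level on every array.

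Elf5, an ETS factor known from mammary and placental epithelium and from the collecting duct, was also lower without overlap. It read 39.1 and 36.8 on wildtype and 12.9 and 8.77 on labelled Tfrc-null arrays, means of 38.0 ± 1.63 and 10.8 ± 2.92 (SD, n = 2 each). This was a 3.57-fold lower level (log2 difference -1.84), with -1.60 and -2.07 within the 2 numbers. The lower value of 8.77 is close to its array's control level of 7.77, and with 16 added to each intensity before log2 the difference was -1.01. Its other probe set read 7.41 to 9.26, below the control level on 1 array and little above it on the others, and differed by 0.16. Elf3, the third factor of the branch, was barely measured. It read 13.7 and 10.6 on wildtype and 6.83 and 11.1 on labelled Tfrc-null arrays, so the groups overlap (means of 12.1 ± 2.19 and 8.96 ± 3.02, SD, n = 2 each). Its log2 difference of -0.47 was -1.003 within number 1 and 0.07 within number 2, which leaves no common direction.

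The RefSeq promoter table (GRCm38.p6) held windows of 300 bases, 250 before and 50 after an annotated start, for 4 of the 9 genes: Elf3, Elf5, Epcam and Spint1. Of their 5 windows, 3 are shown because they carry, in capitals, the longer ETS motif CCGGAAGT or more than 1 copy of CACCTG, the E-box that Zeb and Snail repressors are known to bind. They are from Elf5 (chr2:103411848-103412147, plus strand), Epcam (chr17:87635729-87636028, plus strand) and Spint1 (chr2:119237110-119237409, plus strand), each printed 5' to 3'.
Elf5: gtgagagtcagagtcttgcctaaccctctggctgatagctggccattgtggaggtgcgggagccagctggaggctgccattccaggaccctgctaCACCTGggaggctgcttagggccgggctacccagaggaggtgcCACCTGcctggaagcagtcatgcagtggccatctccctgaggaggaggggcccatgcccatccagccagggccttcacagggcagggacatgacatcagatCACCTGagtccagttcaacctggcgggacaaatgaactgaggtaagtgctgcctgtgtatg
Epcam: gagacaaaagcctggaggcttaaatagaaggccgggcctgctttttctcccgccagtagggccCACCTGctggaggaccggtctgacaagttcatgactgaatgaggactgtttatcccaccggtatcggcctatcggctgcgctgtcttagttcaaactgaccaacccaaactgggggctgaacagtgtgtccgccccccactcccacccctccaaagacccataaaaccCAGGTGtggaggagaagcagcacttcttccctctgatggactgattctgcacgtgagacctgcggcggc
Spint1: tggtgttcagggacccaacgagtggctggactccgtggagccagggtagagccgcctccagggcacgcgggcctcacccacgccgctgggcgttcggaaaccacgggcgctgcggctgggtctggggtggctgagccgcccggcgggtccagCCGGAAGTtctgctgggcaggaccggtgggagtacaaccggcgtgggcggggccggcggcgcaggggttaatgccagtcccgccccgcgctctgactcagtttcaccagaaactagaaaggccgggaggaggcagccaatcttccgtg
CACCTG, searched on both strands, was found in 4 of the 5 windows and in 20.2% of the 32817 windows of the table. Those 4 windows belong to Elf3, Elf5 and Epcam only. Ehf, Grhl2, Esrp1, Mal2 and St14 had no window, so of the genes at least 2-fold lower Elf5 alone was searched. The Elf5 window holds 3 copies, with first bases at -155, -112 and -11 from the start, and 0.366% of all windows hold at least 3. The Epcam window holds 2, at -187 and -19, and 2.88% of all windows hold at least 2. G and C make up 60.7% of this Elf5 window and 57.0% of the Epcam window, where the median of all windows is 52.7%. The shares of all windows were not matched for this. The Elf3 window and the second Elf5 window hold 1 each. CCGGAAGT, again on both strands, was found once, in the Spint1 window at -98, and in 3.89% of all windows. The bare ETS core GGAA, which lies inside CCGGAAGT, was in all 5 windows and in 96.0% of all windows. The grainyhead motif AACCGGTT was in 0 of the 5 windows and in 0.146% of all windows. These matches are letters in a window and were not measured as binding.

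Grhl2 was lower in both labelled Tfrc-null samples. It read 664 and 494 on wildtype and 195 and 180.2 on labelled Tfrc-null arrays, means of 579 ± 119.9 and 187 ± 10.2 (SD, n = 2 each). The level was 3.06-fold lower (log2 difference -1.61), with -1.77 and -1.46 within the 2 numbers, against gaps between replicates of 0.43 and 0.11. The other 3 Grhl2 probe sets had no array above 9.34, and none of them was above the control level on all 4. Probe set 2 was above it on the wildtype arrays only, with a log2 difference of -0.26. Probe set 3 went the other way, at 6.04 and 5.71 against 9.34 and 7.81, above it on the labelled Tfrc-null arrays only (0.54). So near the control level, these probe sets do not check the brightest one, and averaging all 4 gave a difference of only -0.28.

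Esrp1 followed the same pattern. It read 1555 and 1285 on wildtype and 544 and 535 on labelled Tfrc-null arrays, means of 1420.1 ± 191 and 539.7 ± 6.55 (SD, n = 2 each). Both labelled Tfrc-null values were under both wildtype values by far more than replicates differed, 2.62-fold lower (log2 difference -1.39). The differences within number 1 and number 2 were -1.51 and -1.26. It has a single probe set.

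Of the surface genes, Mal2 stood furthest apart. Its product is a membrane protein of apical transport in polarised epithelia. Mal2 read 361 and 367 on wildtype and 84.9 and 74.8 on labelled Tfrc-null arrays, means of 364 ± 4.34 and 79.8 ± 7.15 (SD, n = 2 each). Replicates lay 0.02 and 0.18 apart on the log2 scale and the groups -2.19, a 4.57-fold lower level at position 36 from the lowest of all genes. Under every alternative tried, its difference lay between -2.30 and -1.99, and of the 5 genes at least 2-fold lower, Esrp1 alone had a narrower span, from -1.53 to -1.25. Mal2 and Esrp1 each have a single probe set, so the mean of all probe sets could not move them. That setting gave the smallest differences of Ehf (-1.17), Elf5 (-0.84) and Grhl2 (-0.28), so the spans are not alike.

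Epcam gave a less settled picture. Its brightest probe set read 1025 and 400.2 on wildtype and 546 and 252 on labelled Tfrc-null arrays, so wildtype replicate 2 lay below labelled Tfrc-null replicate 1 and the groups overlap (means of 712 ± 442 and 399 ± 208, SD, n = 2 each). Replicates of a group differed by 1.36 and 1.12 on the log2 scale, more than the groups did (-0.79), and in both groups the array numbered 1 was the higher. Within numbers the difference was -0.91 and -0.67. Leaving out wildtype replicate 1 or 2 gave -0.11 or -1.47, and leaving out labelled Tfrc-null replicate 1 or 2 gave -1.35 or -0.23. The second Epcam probe set, of a kind whose probes can bind other transcripts, read 101 and 61.3 against 35.2 and 30.3, which do not overlap (log2 difference -1.26).

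The protease and its inhibitor were lower by similar, smaller amounts. St14 read 66.9 and 57.0 on wildtype arrays and 35.8 on each of the others, a wildtype mean of 61.9 ± 6.99 (SD, n = 2) and a 1.73-fold lower level (log2 difference -0.79). Spint1 read 304 and 203 on wildtype and 179.8 and 140.1 on labelled Tfrc-null arrays, means of 254 ± 71.5 and 160.0 ± 28.0 (SD, n = 2 each) and 1.57-fold lower (log2 difference -0.65). In both genes the groups do not overlap, but for Spint1 the wildtype arrays lay 0.58 apart, nearly as far as the groups. Within numbers St14 differed by -0.90 and -0.67 and Spint1 by -0.76 and -0.54.

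**Figure D2:**
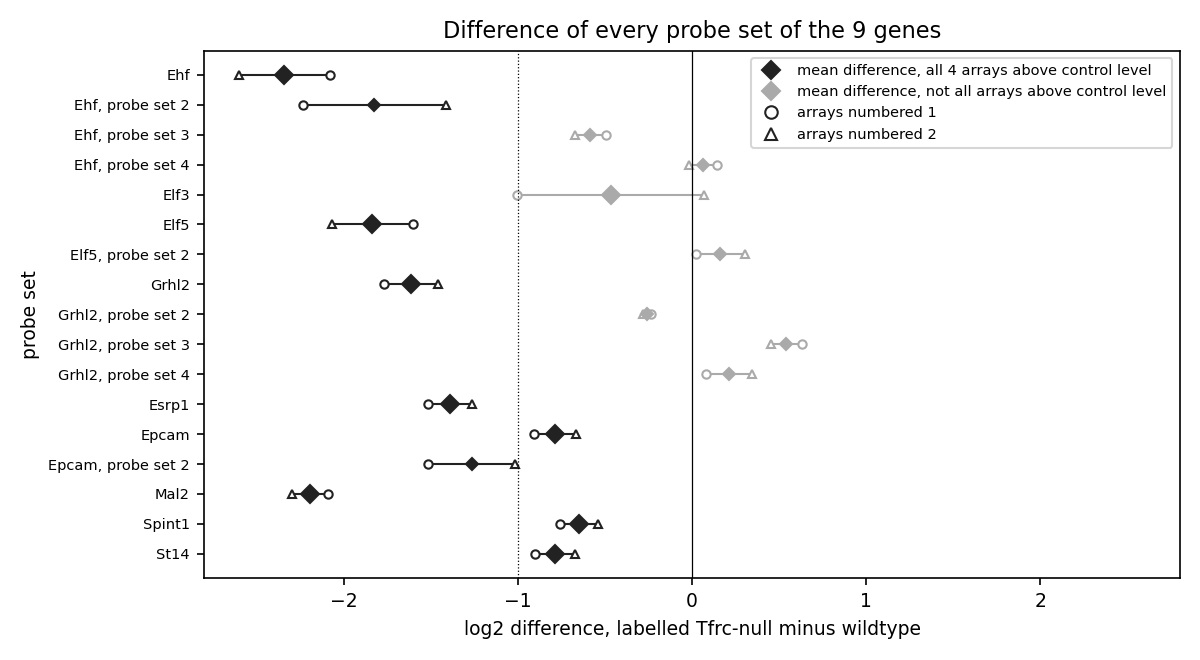
Log2 difference, labelled Tfrc-null minus wildtype, of all 17 probe sets of the 9 genes: diamonds give the mean difference, open circles and triangles the differences within arrays numbered 1 and 2, and grey marks probe sets that were not above the control level on all 4 arrays. All 10 probe sets measured on all arrays lie below 0, from -2.34 (Ehf) to -0.65 (Spint1), and the grey ones lie between -0.58 and 0.54.

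Close relatives of these genes were read beside them. Esrp2, the other epithelial splicing regulator of its pair, read 892 and 841 on wildtype and 851 and 824 on labelled Tfrc-null arrays. Its log2 difference was -0.05 with overlapping groups, beside -1.39 for Esrp1. These are values of its brightest probe set, of a kind whose probes can match several transcripts. A dimmer second Esrp2 probe set read 76.6 and 36.2 against 55.5 and 36.4, also with overlap (-0.23). On that probe set the wildtype arrays lay 1.08 apart. Grhl1 read 48.5 and 55.2 against 57.3 and 41.5 and also overlapped (-0.09), beside -1.61 for Grhl2. Grhl3 was not above the control level except on labelled Tfrc-null replicate 2. Tfcp2l1, a related CP2 factor of the collecting duct, read 384 and 753 against 323 and 363, lower without overlap at -0.65. Whether a relative differed from its partner gene was not tested.

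Mal, the founding member of the family of Mal2, was lower by 2.11-fold, at 286 and 173 on wildtype and 136 and 81.5 on labelled Tfrc-null arrays (log2 difference -1.08), and its second probe set differed by -0.62. Spint2, the second inhibitor of matriptase, read 481 and 340.2 against 372 and 269, and Prss8, the protease prostasin that matriptase activates, 107 and 126 against 100.5 and 68.0. Their log2 differences were -0.35, with overlap, and -0.49, without. The ETS factor Spdef was above the control level on wildtype replicate 2 and on labelled Tfrc-null replicate 2 and at or below it on the other arrays.

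**Figure D3:**
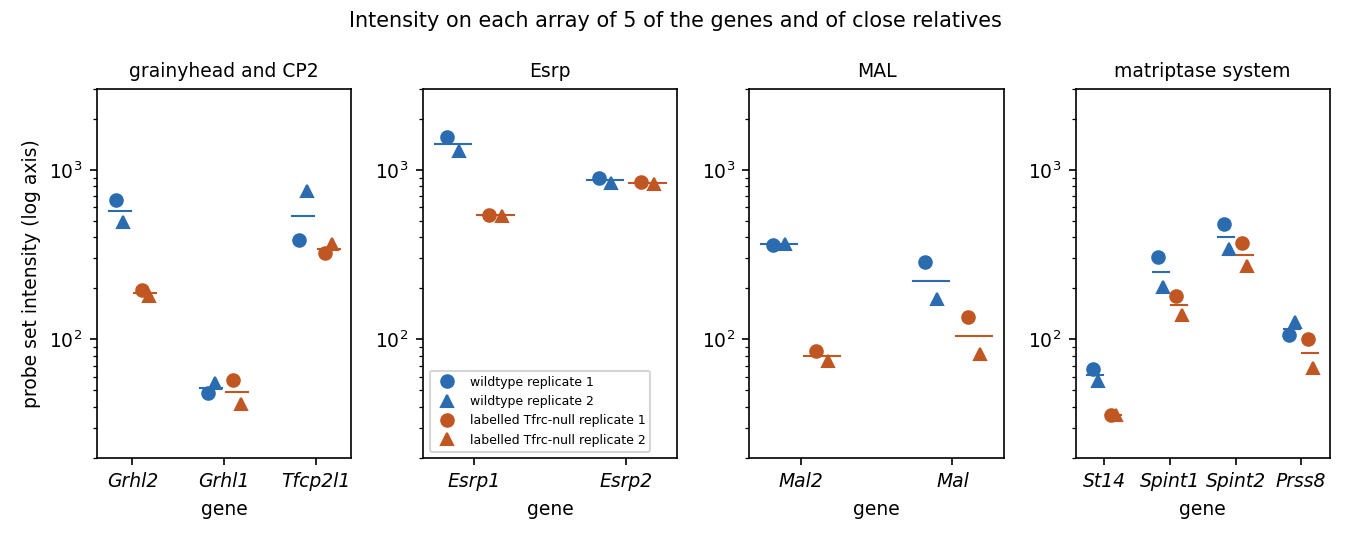
Intensity on a log axis on each of the 4 arrays for 5 of the genes (Grhl2, Esrp1, Mal2, St14, Spint1) beside 6 relatives, in the same colours and symbols as the plot of the 9 genes, with a bar at each group's mean of log2 values. The 4 Esrp2 points, of its brightest probe set, lie together between 824 and 892 where those of Esrp1 fall into 2 pairs.

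Wider lists of related genes were set beside the 9 genes by counts. None of their members passed the limma threshold. These lists and the marker lists below were also chosen with earlier results of these data known. Their counts beside the shares of all genes are a description with no test. Of 21 other ETS factors measured, 9 lay lower and 2 higher without overlap, where 14.3% and 20.6% of all genes did. By 2-fold either way there were 0 (2.66% of all genes), and the median log2 difference of these factors was -0.10. Among those above the control level on both arrays of at least 1 group, the largest difference was -0.63 for Erg, an endothelial factor. Next came 0.61 for Elf4, -0.60 for Elf1, -0.45 for Spib and 0.43 for Spic. Spib read 14.4 and 8.84 against 7.94 and 8.58, below the control level on wildtype replicate 2 and close to it on the labelled Tfrc-null arrays. Of 5 other grainyhead and CP2 factors, 1 lay lower and 1 higher without overlap, and Tfcp2 and Ubp1 differed by -0.11 and -0.13. The 10 other splicing regulators had a median of -0.02, from -0.49 for Rbm47, a splicing factor active in epithelia, to 0.43 for Celf2. The 4 transcripts whose splicing Esrp proteins control differed by -0.32 (Fgfr2), -0.21 (Ctnnd1), -0.08 (Cd44) and 0.05 (Enah), and these probe sets do not separate splice forms.

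Other epithelial transcription factors leaned lower, with a median of -0.39. Of 13 measured, 7 lay lower and 1 higher without overlap, where 14.3% and 20.6% of all genes did. Tfap2a, an AP-2 factor of ectoderm and distal nephron, was 2.14-fold lower, at 228 and 243 on wildtype and 104 and 116 on labelled Tfrc-null arrays, and its second probe set differed by -1.07. Foxa1 had a log2 difference of -0.96, and Sim1 and Emx2, factors of the nephric duct and ureteric bud, of -0.52 and -0.49. Ovol1 was higher, by 0.54. Ovol2, named here although it lay outside the naming rule, was above its control level on 1 array only, wildtype replicate 1.

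Epithelial adhesion and junction genes stood lower in 22 of 24 measured, 14 without overlap and 2 by 2-fold, with 0 higher without overlap and a median of -0.47. Over all genes these shares were 42.4% for a lower mean, 14.3% without overlap and 1.51% by 2-fold. Cldn8, a claudin of the collecting duct, read 1032 and 1061 on wildtype and 497 and 377 on labelled Tfrc-null arrays, 2.42-fold lower. Cldn3 read 143 and 75.5 against 46.9 and 36.4, 2.52-fold lower, with wildtype arrays 0.93 apart on the log2 scale. Its further probe sets differed by -1.65, -0.99 and -0.73. The cingulin gene Cgn and the keratins Krt7 and Krt18 differed by -0.94, -0.91 and -0.79. Cldn4 and Rab25, named for their link to Grhl2 with their values in view, read 12.3 and 15.2 against 8.45 and 7.86, and 29.0 and 36.2 against 25.1 and 23.8. Both lay lower without overlap, by -0.75 and -0.41. The E-cadherin gene Cdh1, also chosen with its values in view, read 941 and 1166 against 629 and 670.4 (-0.69).

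Surface proteases, their inhibitors and substrates had a median of -0.33, with 3 of 16 lower and 2 higher without overlap, where 14.3% and 20.6% of all genes were. Scnn1b, a subunit of the epithelial sodium channel that such proteases cleave, read 64.8 and 66.9 against 27.4 and 40.4 (log2 difference -0.98). Without wildtype replicate 2 the median of the list was -0.03. Scnn1g and the protease hepsin, Hpn, differed by -0.67 and -0.72 with overlap, and the receptor Mst1r by 0.65 in the other direction. Among 11 other MAL and CMTM proteins the median was 0.00, with Cmtm8 at -0.60 and Marveld1 at 0.37.

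Among the lists of related genes, the one that lay the other way held the Zeb, Snail, Twist and Prrx factors. They are known to repress epithelial genes or mark mesenchyme. Of the 9 members of this list, 6 lay higher and 1 lower without overlap, where 20.6% and 14.3% of all genes did. Of the 6, 3 were higher by at least 2-fold, where 1.15% of all genes were. The median of the list was 0.79. Of the cell type markers read below, those of stroma lay higher too, with a median of 0.57, and those of macrophages with 0.27. Prrx1 read 125 and 146 on wildtype and 377 and 498 on labelled Tfrc-null arrays, 3.21-fold higher, and of its 5 further probe sets the 2 above the control level on all arrays differed by 1.60 and 1.46, and the other 3 by 1.40, 0.37 and -0.26. Snai1 read 23.1 and 32.8 against 62.6 and 105.5 (2.95-fold), and Twist2 read 151 and 113 against 319 and 329.8 (2.49-fold). Twist1 and Prrx2 differed by 0.90 and 0.79. Zeb1, Snai2 and Zeb2, named with their values in view, differed by 0.02, 0.16 and 0.35, the first pair with overlap. Leaving out wildtype replicate 1 moved this median to 1.02, and leaving out wildtype replicate 2 moved it to 0.54.

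**Figure D4:**
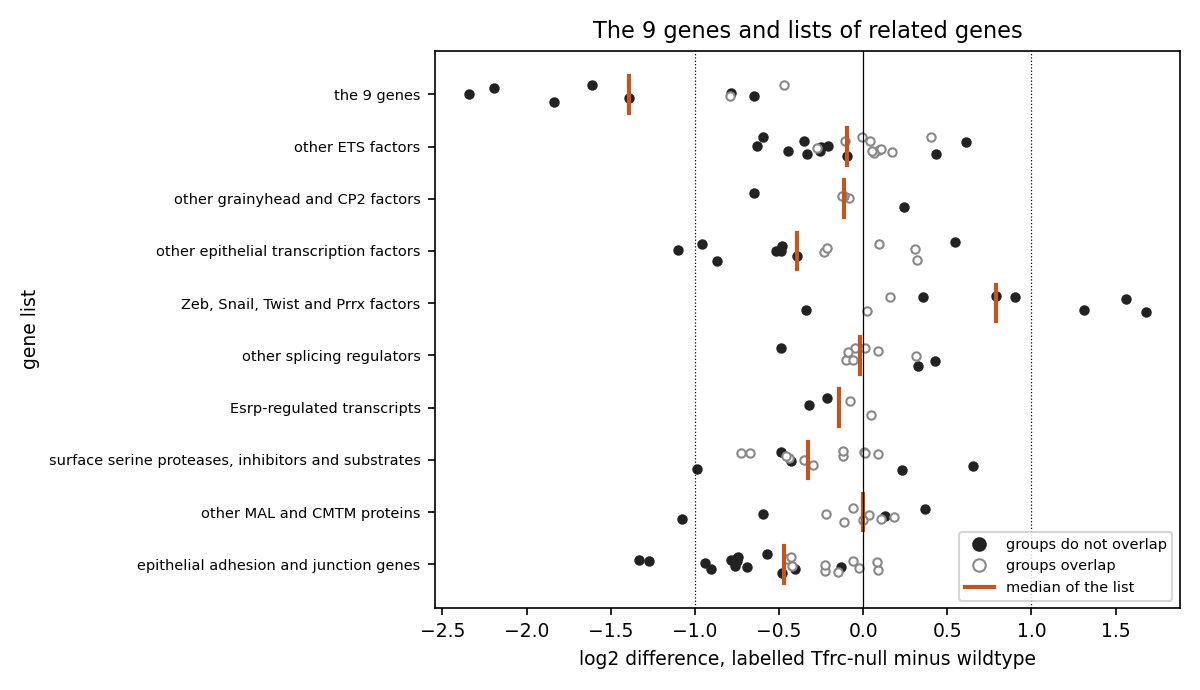
Log2 difference, labelled Tfrc-null minus wildtype, of each gene in the 9 lists of related genes and of the 9 genes themselves, filled where the groups do not overlap, open where they do, with an orange bar at the median of each list and dotted lines at a 2-fold difference. The median of the 9 genes (-1.39) lies lowest, and that of the Zeb, Snail, Twist and Prrx factors (0.79) highest.

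Markers of the cell types that the sorted samples could hold were read beside these values, where 14.3% of all genes lay lower and 20.6% higher without overlap. Of 10 ureteric bud and collecting duct markers, 6 were lower without overlap, and their summed intensity was 3289.8 to 4196 on wildtype and 705 to 1021 on labelled Tfrc-null arrays. The largest parts of these sums were Calb1, at 2497 and 1975 against 693 and 433, and Ret, at 1057 and 790 against 104 and 65.1. Gata3, a bud factor, read 170.3 and 146 against 47.6 and 43.1. For Wnt11, Hoxb7, Aqp2 and Wnt7b the groups overlap. Of 8 nephron epithelium markers 2 were lower without overlap, with overlapping sums of 2736 to 5057 and 3053 to 3998. Stroma markers summed to 8458 to 11584 against 12030 to 13124, with 6 of 8 higher without overlap. Of 6 endothelium markers 2 were lower without overlap (sums of 1614 to 2446 against 1217 to 1915), and of 6 cap mesenchyme markers 1 (1073 to 1093 against 746 to 1056). Neutrophil markers (6 of 8 lower without overlap) summed to 5077 to 8647 against 151 to 577, and erythroid markers (5 of 5) to 1358 to 4121 against 76.2 to 93.7. The 6 macrophage markers summed to 3916 to 5615 against 5287 to 5878, with 1 higher without overlap. The part of these cell types in the differences of the 9 genes was not tested.

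Elf5 also marks trophoblast, and Epcam embryonic stem cells, the source of the donor cells. Trophoblast markers summed to only 73.7 to 73.9 on wildtype and 79.4 to 88.1 on labelled Tfrc-null arrays over 6 genes, with Cdx2 and Tpbpa not above the control level on both arrays of either group. Pluripotency markers summed to 70.5 to 77.9 against 85.3 to 86.3 over 9 genes, with Zfp42, Dppa3 and Tdgf1 not above it. Of the 9, 7 had a higher mean, and 2 (Nanog and Sall4) lay higher without overlap, where 20.6% of all genes did. Nanog read 6.95 and 5.00 against 8.25 and 8.23, above the control level on the labelled Tfrc-null arrays only. Of 7 urothelial and squamous markers, 3 (Trp63, Upk1b and Upk2) lay lower and 1 (Krt14) higher without overlap, and the list's median was -0.04. Only Trp63, the p63 factor of basal epithelia, was 2-fold lower, at 51.0 and 48.6 against 20.9 and 12.8. With the mean of all its probe sets it was not. The keratin genes Krt5, Krt14 and Krt13 differed by -0.0047, 0.24 and 0.35, with Krt14 not above the control level on both arrays of either group. The list's sums were 126 to 152 against 82.4 to 117, and Trp63 itself was the largest part of the wildtype sums.

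The genes whose 4 values most resembled the median pattern of the 9 genes were found by Euclidean distance between log2 values centred on each gene's mean. In wildtype cells the median pattern stood at 0.96 and 0.56 and in labelled Tfrc-null cells at -0.64 and -0.86, and Grhl2 (distance 0.13) and Esrp1 (0.21) lay closest to it among the 9, Elf3 (1.23) furthest. The 8 nearest other genes were Trim16, Foxq1, Arcn1, Lancl2, Tmem18, Arg2, Padi2 and Rgs5, with log2 differences from -1.35 (Padi2) to -1.73 (Arg2). With 4 arrays such likeness is a description only. It is also a likeness of single probe sets. Of the genes with a further probe set above the control level on all arrays, Arg2 differed alike on its second (-1.30), while those of Arcn1 differed by -0.31 and 0.16 and those of Rgs5 by 0.76, -0.97 and -1.78.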

How the data were processed

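Intensity values of probe sets, deposited on a linear scale, were taken to log2. Per the submitters' processing notes they were made with RMA, which adjusts background and equalises array distributions, and the version and settings are not given in the sources used here. The 9 genes and all gene lists were chosen with earlier results of these data known. Probe sets annotated to 1 gene (34958 of 45101) were used, with symbols updated by Entrez identifier in a RefSeq table of GRCm38.p6 that held 18033 of 18194 genes, and each gene was represented by its brightest probe set (mean log2 of 4 arrays). Differences were fitted with limma 3.58.1 in R 4.3.3 (lmFit, eBayes, no block, no filter) and adjusted by Benjamini-Hochberg over all genes; the scripts were tested on simulated arrays with known changes. Folds are log2 differences returned to a linear scale. With 2 arrays a group an exact permutation test cannot go below p = 0.333. Precision is limited by the number of arrays. Named besides the 9 genes are 8 close relatives, in each related list up to 5 genes with the largest differences above the control level, the cell type markers and the 8 genes nearest in pattern; others are marked as chosen with values in view. Alternatives were the replicate block, the mean of all probe sets, an offset of 16 before log2, a filter at the control level, quantile normalization again, median centring, a variance trend and leaving out each array. The comparison of the ETS proteins was not run.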

Additional observations from a re-analysis of the deposited data

How the results depend on the processing

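All 9 genes kept a lower mean under every alternative except Elf3, whose difference was 0.07 within replicate number 2. The number at least 2-fold lower without overlap stayed at 5 or went to 4 with the mean of all probe sets (Ehf, Esrp1, Mal2 and Epcam, without Elf5 and Grhl2) and, leaving out 1 array, was 5 to 6 (the sixth being Epcam). Their median log2 difference moved from -1.39 to -0.84 with the mean of all probe sets, where probe sets at the control level enter for Ehf (-1.17), Elf5 and Grhl2, and to -1.01 with 16 added before log2; leaving out 1 array gave -1.53 to -1.25. Over all genes, 484 were at least 2-fold apart without overlap; this was 309 with the mean of all probe sets, 243 with 16 added, and 600 to 919 leaving out 1 array (919 without wildtype replicate 2). The limma count of 0 became 1 with the mean of all probe sets, and 2 with the replicate block, with median centring and with a variance trend, none of them among the 9 genes; it stayed 0 leaving out any array, where a lone array is assumed to vary like the other group. The labels do not say what a shared replicate number means. Deviations of same-numbered arrays from their group means correlated across genes at 0.512, and the median difference of the 9 genes was -1.51 and -1.26 within the numbers under the replicate block. Without wildtype replicate 1 or labelled Tfrc-null replicate 2, Mal was no longer 2-fold lower, nor were Mal and Tfap2a with the mean of all probe sets or 16 added. Trp63 was no longer 2-fold lower with the mean of all probe sets, nor was Cldn3 without wildtype replicate 1. Signals near the control level limit what can be said of Elf3, Elf5 and the further probe sets of Grhl2.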

Other observations

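Ehf and Elf5 are neighbours on chromosome 2 in the order of protein-coding genes of the RefSeq table, and the genes around them were looked at after their values were known. The 3 before Ehf, Cd44, Pdhx and Apip, had log2 differences of -0.08, 0.26 and 0.46, and the 3 after Elf5, Cat, Abtb2 and Nat10, of -0.33, -0.40 and 0.18, beside -2.34 for Ehf and -1.84 for Elf5. Cat, which encodes catalase, read 1676 and 1659 on wildtype and 1364 and 1291 on labelled Tfrc-null arrays, lower without overlap. Apip, an enzyme of methionine salvage, read 161 and 184 against 259 and 216, higher without overlap. None of the 6 flanking genes differed by 2-fold.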
